A study of Homo sapiens with 2 samples.

Results

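The 10 genes described here encode the core proteins that make small RNAs and act with them: the Argonautes AGO1, AGO2, AGO3 and AGO4, the nucleases DICER1 and DROSHA, the DROSHA partner DGCR8, the export receptor XPO5, and the Argonaute partners TNRC6A and TNRC6B. They were chosen by symbol, for their role, from a table of 54261 features, and all 10 were found in it. They were read in RKO cells, a human colorectal carcinoma line grown in DMEM with serum. 1 RNA-seq library came from cells labelled as HNRNPM knockdown and transfected with siRNA against HNRNPM (the siHNRNPM library). The other came from cells labelled WT and transfected with the control siRNA siNC (the control library). HNRNPM encodes an RNA-binding protein that takes part in splicing. Both libraries therefore come from cells that received an siRNA, and no library of untransfected cells was analysed here. There is 1 library per group, so the differences have no replicate check, no p-value is given, and each interval is a 95% counting interval that leaves out variation between cultures.

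In animal cells the primary transcript of a microRNA is cut in the nucleus by the Microprocessor, made of the nuclease DROSHA and its RNA-binding partner DGCR8. Exportin 5, encoded by XPO5, carries the resulting hairpin to the cytoplasm, where Dicer trims it to a short duplex. An Argonaute protein keeps one strand as a guide and recruits a TNRC6 (GW182) protein, which brings in the deadenylases that shorten the poly(A) tails of targets. Transfected siRNA duplexes enter at the Argonaute step, and AGO2 is the Argonaute known in human cells as the main slicer of fully paired targets.

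Reads in genes numbered 13056118 in the siHNRNPM library and 19931360 in the control library. HNRNPM itself had 1042 reads, 79.6 CPM (the read count relative to the scaled total of its library), in the siHNRNPM library and 2870 reads, 144 CPM, in the control library, which is 55.2% of the control level (51.3% to 59.2%). The epithelial keratin genes KRT8 and KRT18 had 34.4 and 33.1 CPM in the siHNRNPM library, against 27.5 and 31.8 CPM in the control library, and the E-cadherin gene CDH1 had 1 read, against 10. The epithelial adhesion gene EPCAM had 151 reads in the siHNRNPM library, against 179 in the control library, a log2 ratio of 0.36 (0.04 to 0.68). The colorectal lineage factor gene CDX2 had 8.10 CPM in the siHNRNPM library, against 10.7 CPM in the control library. The differentiated-gut marker VIL1 had 0 reads in the siHNRNPM library and 1 read in the control library. Of the 9 epithelial and RKO markers listed, 5 were measured, with 2 higher (KRT8 and EPCAM), 1 lower (CDX2) and 2 spanning a ratio of 1. A list of 15 liver markers summed to 460 reads (35.1 CPM) in the siHNRNPM library and 15 reads (0.754 CPM) in the control library. ALB had 77 reads in the siHNRNPM library and 0 in the control library, AFP had 174 against 1, and SERPINA1 had 177 against 6. These were the only 3 of the 15 that were measured, and they held most of the sum. Each other gene of the list had at most 8 reads in either library, and 4 (APOA1, TTR, FGG and RBP4) had 0 in both. The part of this liver-type RNA in the ratios below was not tested. In bulk RNA, fewer cells of a type and less RNA per cell cannot be told apart.

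Of the 10 machinery genes, AGO2, AGO3 and DICER1 were lower in the siHNRNPM library, DROSHA was higher, and the intervals of the other 6 spanned a ratio of 1. These are differences between 2 libraries, and such differences were common. Among all 12925 measured genes (those reaching 1 CPM in either library), the interval lay below a ratio of 1 for 26.1% and above it for 22.0%. Among the 5559 genes with a mean CPM between those of the lowest and the highest machinery gene, 39.6 and 698, these shares were 35.4% and 25.6%. A count of 3 lower and 1 higher of 10 is near this background. Only AGO2 was at least 1.5-fold lower with an interval excluding a ratio of 1, which held for 4.56% of all measured genes and for 1.78% of genes in the same range of expression. None of the 10 was at least 1.5-fold higher, which held for 646 measured genes (5.0%). None was 2-fold lower or higher, which held for 1.49% and 2.45%. The median log2 ratio of the 10 genes, siHNRNPM over control, was -0.06, and that of all measured genes was -0.01 with quartiles of -0.21 and 0.18. The 10 genes summed to 1317 CPM in the siHNRNPM library, against 1715 CPM in the control library, and to 789 against 846 CPM without AGO2. With the trend of the ratios over transcript length and GC content removed, AGO1, XPO5 and TNRC6B also lay above a ratio of 1, at log2 ratios of 0.20, 0.11 and 0.093.

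**Figure D1:**
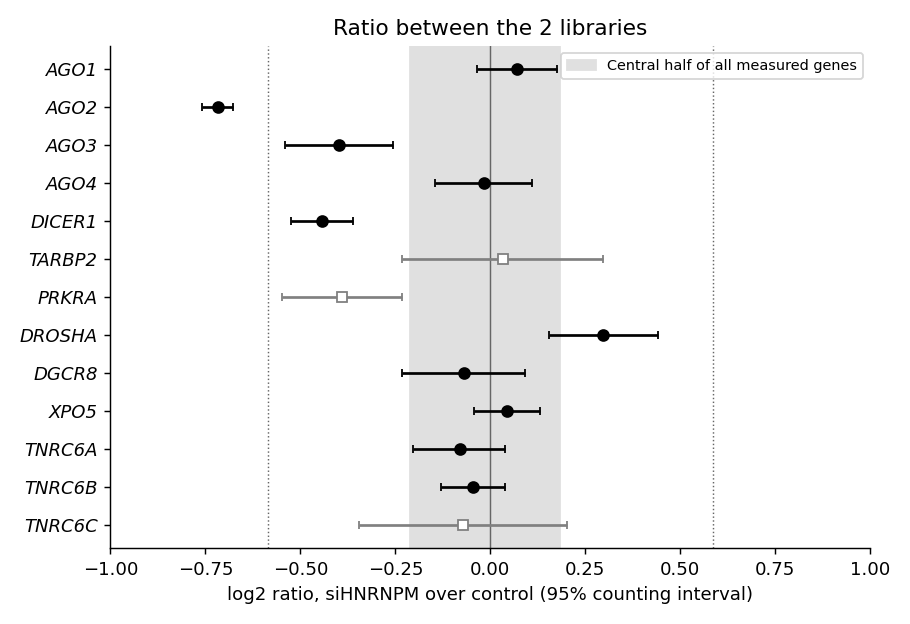
Log2 ratio of siHNRNPM over control for the 10 machinery genes (black circles) and the partner genes TARBP2, PRKRA and TNRC6C (open squares), with 95% counting intervals. The grey band is the interquartile range of all measured genes, from -0.21 to 0.18, and dotted lines mark 1.5-fold; AGO2 at -0.72 is the only gene beyond them.

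AGO2 was by far the most read of the Argonautes and also differed most between the libraries. AGO2 (minus strand of chromosome 8 from 140520156 to 140635619 in GRCh38) had 6914 reads, 528 CPM, in the siHNRNPM library and 17266 reads, 868 CPM, in the control library. Its level was thus 60.8% of that in the control (59.2% to 62.6%), or 1.64-fold lower, a log2 ratio of -0.72 (-0.76 to -0.68). By its ratio AGO2 was the 512th lowest of the 12925 measured genes. Abundant genes had narrower ratios: among the 5559 genes in the range of expression of the machinery genes AGO2 was the 37th lowest. AGO2 itself set the upper limit of that range, so it was compared there with less expressed genes. Of the 215 genes whose mean CPM reached 500, AGO2 was the 4th lowest. HNRNPM, the gene the siRNA was directed against, had a log2 ratio of -0.86 (-0.96 to -0.76). The ratio of AGO2 lay 0.14 above that of HNRNPM, with an interval of 0.03 to 0.25 for the difference.

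**Figure D2:**
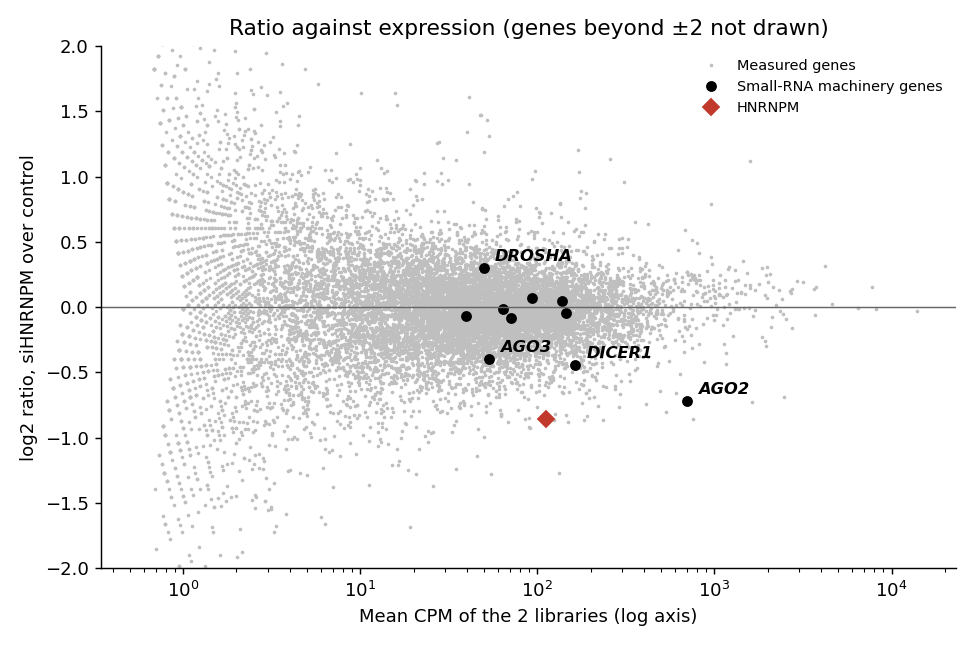
Log2 ratio of siHNRNPM over control (y axis) against the mean CPM of both libraries (x axis, log scale) for measured genes within 2 log2 units of 0 (grey), the 10 machinery genes (black) and HNRNPM (red). AGO2, with a mean of 698 CPM, lies at -0.72 at the lower edge of the cloud, while AGO3, DICER1 and DROSHA lie within the spread of genes of their expression.

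The other Argonautes did not share the ratio of AGO2. AGO3 (chromosome 1, 35930718 to 36072500, plus strand) had 605 reads, 46.2 CPM, in the siHNRNPM library and 1211 reads, 60.9 CPM, in the control library, with a log2 ratio of -0.40 (-0.54 to -0.26), the 326th lowest in that range. AGO1 (35869808 to 35930528) had 1249 reads, 95.4 CPM, in the siHNRNPM library and 1808 reads, 90.9 CPM, in the control library, with a log2 ratio of 0.07 (-0.04 to 0.17). AGO4 (35808172 to 35857890) had 829 reads, 63.3 CPM, against 1275 reads, 64.1 CPM, and a log2 ratio of -0.02 (-0.15 to 0.11). These 3 genes lie side by side on the plus strand of chromosome 1, so neighbours within 1 locus had different ratios. Differences between genes within the same pair of libraries do not depend on how the libraries are scaled. The log2 ratio of AGO2 lay below that of AGO1 (difference -0.79, -0.90 to -0.67), that of AGO4 (-0.70, -0.83 to -0.57) and that of AGO3 (-0.32, -0.47 to -0.17). The ratio of AGO3 also lay below those of AGO1 (difference -0.47, -0.65 to -0.29) and AGO4 (-0.38, -0.57 to -0.19), while AGO1 and AGO4 differed by 0.09 with an interval of -0.08 to 0.25.

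The make-up of the Argonaute reads therefore differed between the libraries. AGO2 took 72.0% of the 9597 Argonaute reads in the siHNRNPM library (exact binomial interval 71.1% to 72.9%) and 80.1% of the 21560 in the control library (79.5% to 80.6%). AGO1 took 13.0% in the siHNRNPM library and 8.39% in the control library, AGO4 took 8.64% and 5.91%, and AGO3 took 6.30% and 5.62%. The 4 genes together had 733 CPM in the siHNRNPM library, against 1084 CPM in the control library, a log2 ratio of -0.56 (-0.60 to -0.53). Without AGO2 the other Argonautes had 205 CPM in the siHNRNPM library, against 216 CPM in the control library, a log2 ratio of -0.08 (-0.15 to -0.01). Most of the difference in the Argonaute sum was thus that of AGO2. No 50-base stretch of an annotated transcript of any of the 10 genes occurred in a transcript of another of the 10, in either direction, so reads of at least this length have no exact second match within the family. The read length was not given in the sources used here.

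DICER1, which encodes the nuclease that cuts hairpin precursors, was also lower in the siHNRNPM library. DICER1 (chromosome 14, 95086228 to 95158010, minus strand) had 1822 reads, 139 CPM, in the siHNRNPM library and 3763 reads, 189 CPM, in the control library. Its log2 ratio was -0.44 (-0.52 to -0.36), or 73.6% of the control level, the 247th lowest of the 5559 genes in the same range of expression. Its overlapping antisense gene DICER1-AS1 had 23 reads in the siHNRNPM library and 48 in the control library, a ratio that differed from that of DICER1 by 0.02 with a wide interval of -0.74 to 0.80. The double-stranded RNA-binding partners of Dicer did not share 1 ratio. PRKRA, which encodes PACT, had 38.1 CPM in the siHNRNPM library, against 49.9 CPM in the control library, a log2 ratio of -0.39 (-0.55 to -0.23). TARBP2, which encodes TRBP, had 15.3 and 14.9 CPM in the siHNRNPM and control libraries, a log2 ratio of 0.03 (-0.23 to 0.30). The ratio of DICER1 lay below that of TARBP2 (difference -0.48, -0.75 to -0.20).

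Neither Microprocessor gene, upstream of Dicer in the pathway, had an interval below a ratio of 1. DROSHA (chromosome 5, 31400497 to 31532196, minus strand) was the 1 machinery gene that was higher, with 719 reads, 54.9 CPM, in the siHNRNPM library and 889 reads, 44.7 CPM, in the control library. Its log2 ratio was 0.30 (0.15 to 0.44), or 1.23-fold higher, and it ranked 366th from the highest among the 5559 genes in the same range of expression. DGCR8 (chromosome 22, 20080232 to 20111877, plus strand) had 506 reads, 38.7 CPM, in the siHNRNPM library and 807 reads, 40.6 CPM, in the control library, a log2 ratio of -0.07 (-0.23 to 0.09). The log2 ratio of DROSHA lay 0.37 above that of DGCR8 (0.15 to 0.59). Per kilobase of annotated exon, the level of DROSHA was 1.34 times that of DGCR8 in the siHNRNPM library and 1.04 times in the control library. DGCR8 overlaps TRMT2A on the opposite strand, which had 361 reads in the siHNRNPM library and 597 in the control library. XPO5 (chromosome 6, 43522330 to 43576075, minus strand) had 1820 reads, 139 CPM, in the siHNRNPM library and 2682 reads, 135 CPM, in the control library, a log2 ratio of 0.04 (-0.04 to 0.13). XPO5 overlaps POLR1C on the opposite strand, which had 322 and 474 reads in the siHNRNPM and control libraries. Whether the authors counted reads by strand was not given, so reads in such overlaps could belong to either gene.

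The TNRC6 genes, which encode the scaffold between Argonaute and the deadenylases, had nearly equal levels in both libraries. TNRC6A (chromosome 16, 24610209 to 24827632, plus strand) had 906 reads, 69.2 CPM, in the siHNRNPM library and 1456 reads, 73.2 CPM, in the control library, a log2 ratio of -0.08 (-0.20 to 0.04). TNRC6B (chromosome 22, 40044817 to 40335808, plus strand) had 1870 reads, 143 CPM, against 2933 reads, 148 CPM, a log2 ratio of -0.05 (-0.13 to 0.04). The third paralogue, TNRC6C, is not among the 10 and had 183 and 292 reads in the siHNRNPM and control libraries, with a log2 ratio of -0.07 (-0.35 to 0.20). TNRC6B took 63.2% of the reads of the 3 genes in the siHNRNPM library and 62.7% in the control library. The difference between the log2 ratios of TNRC6A and TNRC6B was -0.04 (-0.18 to 0.11).

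Levels of different genes were set side by side as CPM per kilobase of annotated exon. AGO2 had the highest level in both libraries, 33.4 in the siHNRNPM library and 54.8 in the control library, followed by XPO5 at 16.3 and 15.8 and DICER1 at 11.3 and 15.4 in the siHNRNPM and control libraries. The counting intervals of XPO5 and DICER1 overlapped in the control library and were apart in the siHNRNPM library. AGO4 came next, at 8.72 and 8.82. TNRC6B, DROSHA and AGO1 had 7.14, 7.06 and 6.87 in the siHNRNPM library with overlapping intervals, and 7.38, 5.75 and 6.55 in the control library with intervals that were apart. TNRC6A and DGCR8 had 5.36 and 5.29 in the siHNRNPM library and 5.67 and 5.55 in the control library, overlapping in both, and DROSHA overlapped them in the control library. AGO3 was lowest, at 2.18 in the siHNRNPM library and 2.88 in the control library. With the length of the longest transcript in place of all exons, AGO2, XPO5 and DICER1 stayed the highest in that order. AGO3 stayed the lowest, while the genes between them changed places. Both lengths count long annotated 3′ UTRs, that of AGO3 being 16755 bases, and whether these cells use them in full was not tested. By CPM alone AGO3, at 46.2 and 60.9 in the siHNRNPM and control libraries, lay above DGCR8, at 38.7 and 40.6.

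**Figure D3:**
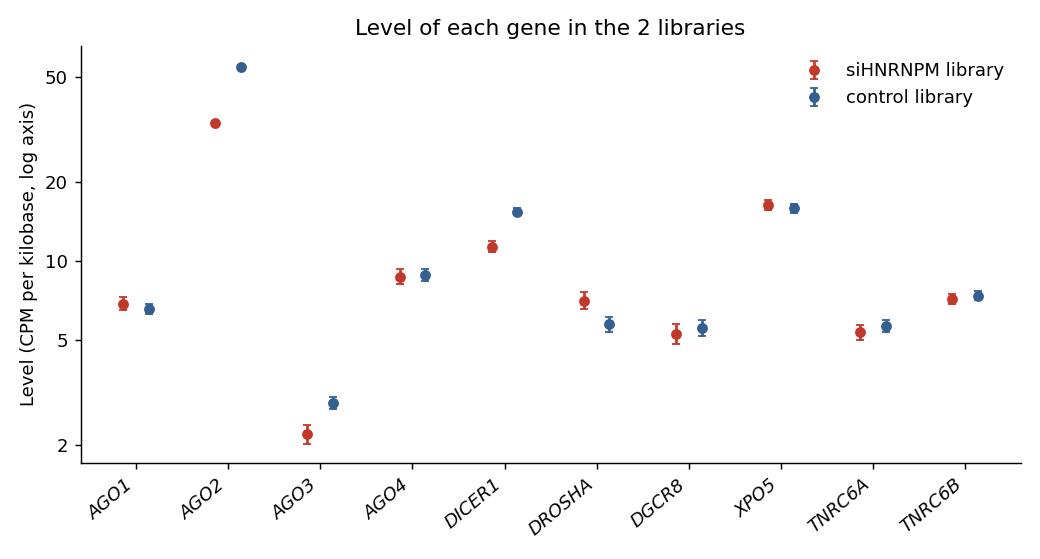
Level of each gene as CPM per kilobase of annotated exon (y axis, log scale) in the siHNRNPM library (red, left) and the control library (blue, right), with 95% counting intervals. AGO2 is highest in both libraries, at 33.4 and 54.8, and AGO3 lowest, at 2.18 and 2.88.

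Since small RNAs bind targets through bases 2 to 8 of the guide (the seed), the longest annotated 3′ UTR of each gene was searched for 7-base sites on the mRNA strand. The machinery genes have long 3′ UTRs: their median length was 4278 bases, against 1462 for the 9837 protein-coding genes searched, and 4 of the 10 (AGO1, AGO2, AGO3 and TNRC6B) exceeded 10000 bases, as did 1.17% of genes searched. The first site was GTGAGAA, chosen because earlier results from these libraries had already shown lower ratios for genes that hold it. The sources used here give no siRNA sequences, so any link of the site to them was not tested. The searched genes with GTGAGAA had a median log2 ratio of -0.14 (quartiles -0.34 and 0.03), and those without it -0.01 (-0.17 and 0.15). The site was chosen for such a gap and 3′ UTR lengths were not matched, so these medians are no test of it. GTGAGAA stood in 4 of the 10 machinery genes, against 15.0% of genes searched and 41.0% of the 1389 with a 3′ UTR of 4000 bases or more. The 3′ UTRs of DROSHA, DGCR8, XPO5 and TNRC6A are shorter than 4000 bases, so the second share is not for a like set. AGO3 held 5 copies, and 8 of the 9837 genes had 5 or more. AGO1 held 2, and AGO2 and TNRC6A held 1 each. The copies in AGO3, AGO1 and TNRC6A are shown to let their flanks be compared, and that of AGO2 is not printed here. GTGAGAA is in capitals, with its GRCh38 position after each name:
AGO3 chr1:36061050-36061056 plus strand: aatcagaaaGTGAGAAttttctcca
AGO3 chr1:36061541-36061547 plus strand: gatttaccaGTGAGAAaccctgttg
AGO3 chr1:36062396-36062402 plus strand: tcagcttaaGTGAGAAagcaaaatg
AGO3 chr1:36066799-36066805 plus strand: agtaggattGTGAGAAtatatagtg
AGO3 chr1:36068237-36068243 plus strand: ctcagttaaGTGAGAAttaagattg
AGO1 chr1:35924375-35924381 plus strand: agattttagGTGAGAAtaatactgt
AGO1 chr1:35925889-35925895 plus strand: gataccccaGTGAGAAatcgtcagt
TNRC6A chr16:24825621-24825627 plus strand: tgaaataatGTGAGAAcaatgggaa

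AGO1, with 2 copies, had a log2 ratio of 0.07 and was higher than most of the 1478 genes with the site, at percentile 79.2. AGO3, with 5 copies, had -0.40 and stood at percentile 20.1, and TNRC6A, with 1, had -0.08 and stood at percentile 59.8. AGO2, with 1 copy, had -0.72 and stood at percentile 4.87. DICER1 had a log2 ratio of -0.44 with no copy of GTGAGAA in its 3′ UTR. A match is only a description of the sequence, and binding was not measured.

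**Figure D4:**
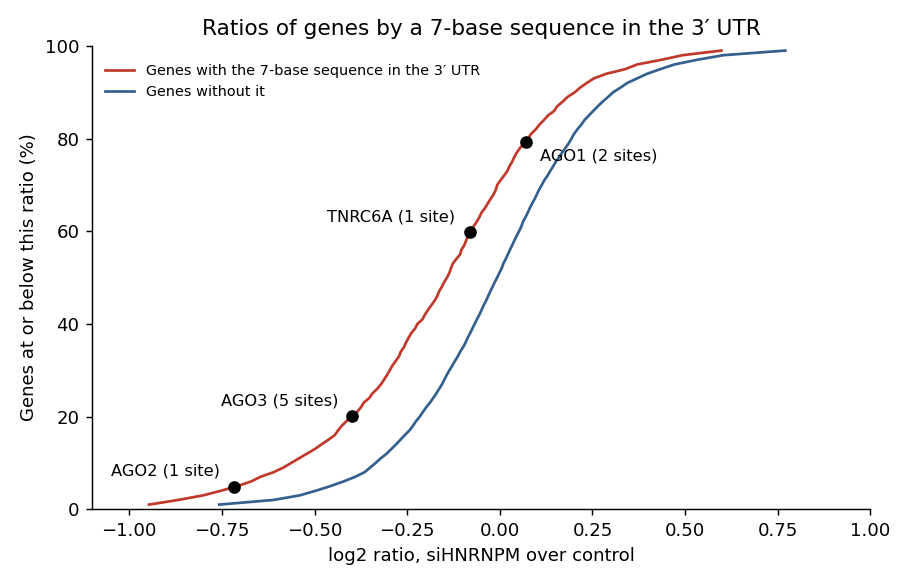
Cumulative share of genes (y axis, percent) by log2 ratio of siHNRNPM over control (x axis) for the 1478 searched genes with the 7-base sequence GTGAGAA in the longest 3′ UTR (red) and the genes without it (blue). The black points are the 4 machinery genes that hold it, from AGO2 at percentile 4.87 to AGO1 at percentile 79.2, so these genes spread over most of the red curve. The sequence was chosen for lower ratios in these same libraries, so the gap between the curves is no test of it.

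The other sites were those of microRNAs known in human cells to act on DICER1 mRNA, let-7, miR-103a and miR-107. Their mature sequences from RefSeq (GRCh38.p14), with the seed in capitals, are:
hsa-let-7a-5p: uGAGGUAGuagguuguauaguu
hsa-miR-103a-3p: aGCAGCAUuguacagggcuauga
hsa-miR-107: aGCAGCAUuguacagggcuauca
The seed of miR-103a and miR-107 is the same and pairs with ATGCTGC. The DICER1 3′ UTR, 4270 bases long, held 5 copies of it, and 6 of the 9837 genes searched had 5 or more. AGO2, with 11888 bases, was another of these and also had 5, while AGO1 and TNRC6B had 3 each, AGO4 had 2 and AGO3 had 1. In all, 6 of the 10 machinery genes held ATGCTGC, against 14.9% of genes searched and 38.1% of those with a 3′ UTR of 4000 bases or more. These 6 were the machinery genes with a 3′ UTR of 4000 bases or more, and DROSHA, DGCR8, XPO5 and TNRC6A had shorter ones. The copies in DICER1 are shown with ATGCTGC in capitals and its GRCh38 position after each name:
DICER1 chr14:95089458-95089464 minus strand: acctaaaatATGCTGCagattttat
DICER1 chr14:95088857-95088863 minus strand: cttcgtggaATGCTGCatttatatg
DICER1 chr14:95087653-95087659 minus strand: gtcctaactATGCTGCgttttataa
DICER1 chr14:95086382-95086388 minus strand: taccatcacATGCTGCagctgtttt
DICER1 chr14:95086330-95086336 minus strand: acagtaatcATGCTGCagaaatttg
The searched genes with ATGCTGC had a median log2 ratio of -0.08 and those without it -0.02. The let-7 site CTACCTC stood in 3 of the 10 genes, AGO1 (1), AGO2 (2) and AGO3 (1), against 12.0% of genes searched and 32.3% of those with a 3′ UTR of 4000 bases or more. The searched genes with CTACCTC had a median log2 ratio of -0.07 and those without it -0.02. The DICER1 3′ UTR held no copy of CTACCTC, and neither its coding sequence nor other forms of the site were searched. Small RNAs were not measured, so the level of these microRNAs in either library is not known.

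The partners of the core proteins were read from lists of genes chosen by role. Of 20 measured cofactors of microRNA biogenesis, 9 were lower and 2 higher, with 9 spanning a ratio of 1. Their median log2 ratio was -0.10, and none was 1.5-fold lower or higher. For comparison, 26.1% of all measured genes were lower and 22.0% higher. In the range of expression of the machinery genes, these shares were 35.4% and 25.6%. The cofactors were matched to neither set, so whether their counts stand apart from the background was not tested. ZCCHC6, which encodes the uridylyltransferase TUT7 that acts on let-7 precursors, had 146 CPM in the siHNRNPM library, against 201 CPM in the control library, a log2 ratio of -0.46 (-0.54 to -0.38). The RNA-editing genes ADARB1 and ADAR had log2 ratios of -0.36 (-0.53 to -0.20) and -0.16 (-0.21 to -0.11), and the cap-binding gene NCBP1 had -0.15 (-0.25 to -0.06). Of the helicases that assist the Microprocessor, DDX5 had -0.15 (-0.20 to -0.10) and its paralogue DDX17 had 0.09 (0.05 to 0.13). ERH, whose protein binds DGCR8, had 0.14 (0.07 to 0.22).

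Of 28 measured partners in Argonaute loading and silencing, 11 were lower and 8 higher, with 9 spanning a ratio of 1. Their median log2 ratio was -0.05, and none was 1.5-fold lower or higher. The decapping genes DCP1A, DCP2 and EDC4 had log2 ratios of -0.51 (-0.63 to -0.40), -0.36 (-0.45 to -0.27) and -0.28 (-0.40 to -0.16). XRN1, the 5′ to 3′ exonuclease gene, had -0.29 (-0.38 to -0.20). The LIM-domain gene AJUBA, whose protein binds Argonaute, had -0.42 (-0.63 to -0.23), and PTGES3, which encodes the HSP90 co-chaperone p23, had -0.32 (-0.37 to -0.26). TSNAX, which encodes a subunit of the C3PO nuclease, had -0.34 (-0.50 to -0.19). SND1, a Tudor nuclease gene, had 0.23 (0.17 to 0.29) and was the only 1 of the 8 higher partners that the naming rule picked. The highest ratio of the list was that of EIF4ENIF1, 0.30 with a wider interval (0.10 to 0.51). The list itself was drawn from several steps of the pathway, so the spread of the named lower partners over steps is no result. Among all measured genes 26.1% were lower and 22.0% higher, and whether either list differs from genes of its own range of expression was not tested.

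**Figure D5:**
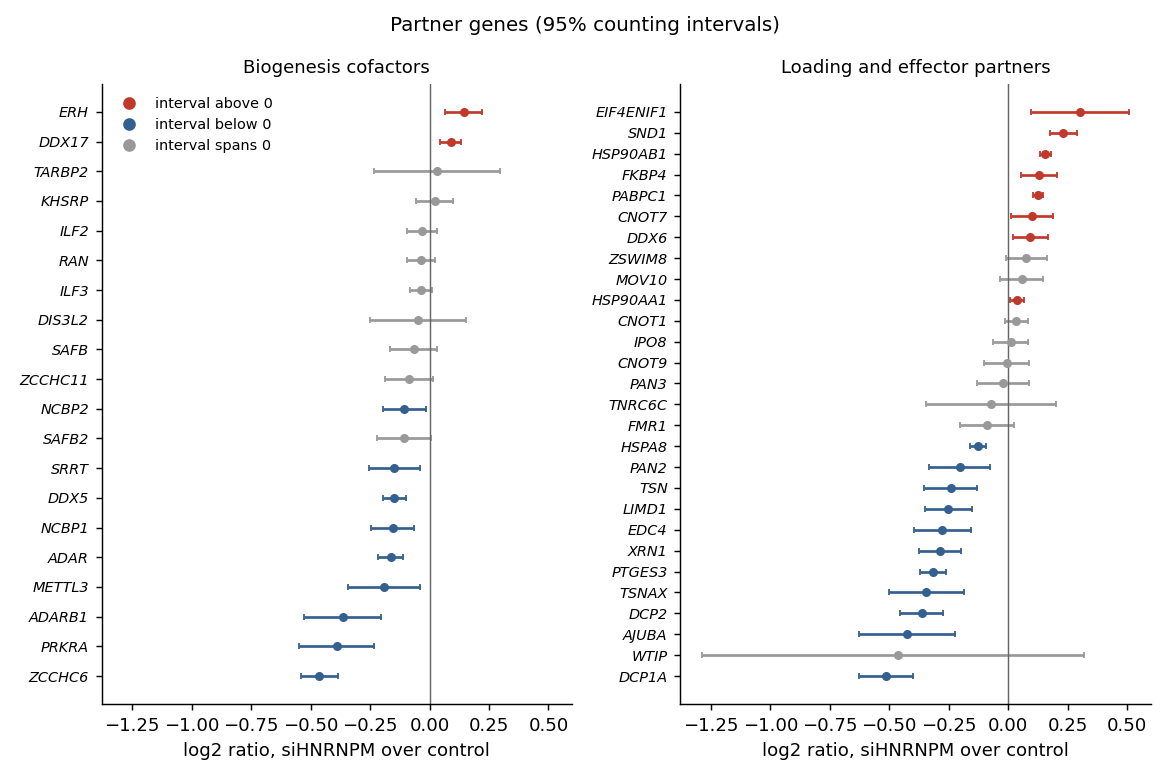
Log2 ratio of siHNRNPM over control with 95% counting intervals for the 20 measured biogenesis cofactors (left) and the 28 measured loading and effector partners (right), sorted by ratio. Intervals lie below 0 for 9 and 11 genes (blue) and above 0 for 2 and 8 genes (red), and DCP1A at -0.51 and ZCCHC6 at -0.46 are lowest among those with intervals off 0.

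Host transcripts of microRNAs, the long RNAs from which hairpins are cut, were measured for 12 of 50 listed genes. Of these, 3 were higher, 1 was lower and 8 spanned a ratio of 1. Among all measured genes 22.0% were higher and 26.1% lower, so by interval alone the count of higher hosts is near the background. All 3 higher hosts were also at least 1.5-fold higher, while only 646 of the 12925 measured genes were, a smaller share. These 3 hosts had at most 90 reads in a library, and with so few reads an interval mostly excludes a ratio of 1 only where the ratio is large. The contrast at 1.5-fold thus cannot set hosts apart from other genes. Whether hosts differ from genes with similar read counts was not tested. MIR34AHG, the host of miR-34a, a microRNA known as a target of p53, had 87 reads, 6.65 CPM, in the siHNRNPM library and 48 reads, 2.41 CPM, in the control library, a log2 ratio of 1.46, with the interval starting at 0.94. MIR31HG had 34 reads against 25 in the control library, a log2 ratio of 1.05 (0.26 to 1.85), and MIR155HG had 90 against 88 reads, 0.64 (0.20 to 1.08). MIR100HG was lower, at 194 against 353 reads (-0.26, with the interval ending just below 0). MIR17HG, the host of a well known microRNA cluster, had 66 against 82 reads and a ratio whose interval spanned 1, 0.29 (-0.20 to 0.78). The mature sequence of miR-34a (RefSeq, GRCh38.p14), the small RNA made from the host with the highest ratio, has its seed in capitals here:
hsa-miR-34a-5p: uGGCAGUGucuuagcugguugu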

How the data were processed

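The deposited table holds the authors' raw read count of each gene symbol in each library, as whole numbers. HISAT2 2.0.4 and GRCh38 are listed per the submitters' processing notes, without a role. Not given in the sources used here are the read counter, annotation, strand use, read length and siRNA sequences. Library sizes were scaled by TMM (edgeR 4.0.16, R 4.3.3; factors 1.00 for the siHNRNPM library and 0.998 for the control library). Genes reaching 1 CPM in either library were kept. Each log2 ratio of siHNRNPM over control has a 95% interval from the exact Clopper-Pearson bounds on how its reads divide between both libraries, and a count of 0 was set to 0.5. Differences between the ratios of a pair of genes have exact conditional intervals of the odds ratio, and levels have exact Poisson intervals. PCR reads are not independent molecules, so all intervals cover counting error only. With 1 library per group no test could be run. The interval procedure was tested on data simulated with known ratios. Positions, exon lengths, transcripts and 3′ UTRs came from GENCODE 29, and microRNA sequences from RefSeq. The 3′ UTR search used protein-coding genes with at least 100 reads and no copy on an alternate sequence. The genes and lists were chosen with earlier results of these data known. From each list of partners, up to 8 genes with an interval excluding a ratio of 1 were named, those whose nearer bound lay farthest from 0.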

Additional observations from a re-analysis of the deposited data

How the results depend on the processing

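Across 9 alternatives the same 3 genes, AGO2, AGO3 and DICER1, had intervals below a ratio of 1, DROSHA stayed above it, AGO2 alone was 1.5-fold lower and none was 2-fold lower or higher. The alternatives on CPM filter, protein-coding genes and alternate copies change only which genes are kept. They could not move the ratios of the 10 genes, so only the scaling, thinning and trend alternatives bear on these. The log2 ratio of AGO2 ranged from -0.73 to -0.59 and that of DROSHA from 0.29 to 0.37. With the trend over transcript length and GC content removed, AGO1 (0.20), TNRC6B (0.093) and XPO5 (0.11) also lay above a ratio of 1, which made 4 higher genes, while AGO2, AGO3 and DICER1 had -0.59, -0.24 and -0.30, and the median of the 10 genes was 0.05. Of the background counts, 1.5-fold lower and higher genes numbered 589 and 646, against 359 and 294 at a CPM of 5 or more, and 347 were higher among protein-coding genes. The 2-fold lower and higher genes numbered 193 and 317, against 301 and 602 with no CPM filter, 50 and 70 at a CPM of 5 or more, and 126 and 145 among protein-coding genes, all sets of other sizes; 207 were higher with the trend removed. By the length of the longest transcript, an alternative chosen after seeing the data, AGO2 took 66.5% and 76.1% of the Argonaute level per kilobase in the siHNRNPM and control libraries, against 65.2% and 75.03% by the length of all exons. No paired analysis was possible because there is 1 library per group, and for the same reason no replicate could be left out. Depth limits the lowest genes most: for DGCR8, the least read of the 10, the interval spanned -0.23 to 0.09. The cause of these shifts was not tested.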

Other observations

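The germline Argonautes of the PIWI clade were nearly unread. PIWIL1 and PIWIL3 had 0 reads in both libraries, PIWIL2 had 1 read in the siHNRNPM library and 0 in the control library, and PIWIL4 had 7 reads against 20, with an interval that spanned a ratio of 1.

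Entries for microRNA genes themselves held few reads: 282 of 1878 had a read, and together they summed to 1443 reads in the siHNRNPM library and 2370 in the control library. Of the 22 that were measured, 2 were higher, 5 were lower and 15 spanned. Among all measured genes 22.0% were higher and 26.1% lower, so by interval alone neither count exceeds the background. All 5 lower entries were also at least 1.5-fold lower, while only 589 of the 12925 measured genes were, a smaller share. At least 1.5-fold higher were 1 entry and 646 measured genes. The lower entries had at most 115 reads in a library. With so few reads an interval mostly excludes a ratio of 1 only where the ratio is large. The contrast at 1.5-fold thus cannot set these entries apart, and a comparison with genes of similar read counts was not tested. MIR186 was highest among those off a ratio of 1, with 47 reads against 34 (log2 ratio 1.07, 0.40 to 1.75). MIR590 was lowest, with 10 against 39 reads (-1.36, -2.53 to -0.33). MIR3153 had -1.22 (-2.34 to -0.23), MIR3064 -0.91 (-1.61 to -0.24), MIR548AR -0.86 (-1.76 to -0.04), MIR637 -0.63 (-1.14 to -0.13) and MIR4292 0.54 (0.03 to 1.05). Such entries lie inside longer genes in many cases, and reads of a hairpin and of the RNA around it cannot be told apart. The hairpin genes inside DGCR8, MIR1306 and MIR3618, and MIR3173 inside DICER1 had 0 reads in both libraries.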
